A study of Mus musculus with 2 samples.

Results

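Mouse genes that have not been given a descriptive name carry a provisional one, either Gm and a number for a predicted gene model or a code that ends in Rik for a cDNA clone of the RIKEN collection. The regions described here are the autosomal ELAVL2 RIP peaks that lay inside such clone-named genes and inside no other gene, where the gene's description did not call it a pseudogene. There were 1503 of them in 675 genes, among 28332 peaks in the whole list. The peaks they were compared with were the 18628 autosomal peaks inside other genes, and, where stated, the 6442 autosomal peaks inside no gene. The rule used names and positions and no measured value. Just outside it were 910 autosomal peaks that overlapped both a clone-named gene and another gene, which count among the 18628. Autosomal peaks in a clone-named gene whose description called it a pseudogene count there too.

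The series compared RNA recovered with an ELAVL2 antibody (RNA immunoprecipitation, RIP) with input RNA, both from mouse ovary on postnatal day 0. The RIP library came from a lysate of 100 newborn ovaries that was held for 6 hours with 5 ug of antibody on protein G beads, and the input library from 5% of the cleared lysate. The labels gave no strain or genotype, and an RIP with a control antibody was not analysed here, so binding to ELAVL2 and other retention on the beads cannot be told apart. Each arm was 1 sample, so no difference below has a replicate check, no p-value is given across peaks, and the 95% intervals are exact binomial (Clopper-Pearson) intervals that cover counting error only. Of 172711531 RIP tags 13787676 (7.98%) were kept by the peak caller at 1 tag per position and strand, and of 210270620 input tags 19479946 (9.26%) were kept. As a check of the tissue, 3 of 8 oocyte markers (Ddx4, Dazl and Kit) had a peak inside, against 0 of 5 pregranulosa, 0 of 3 stromal, 0 of 2 endothelial and 0 of 2 blood markers. A peak shows RIP above local input and not expression, so a marker without a peak can still be expressed.

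ELAVL2 belongs to the ELAV/Hu family of RNA-binding proteins, which bind U-rich and AU-rich stretches, mostly in the 3′ parts and introns of transcripts, and act on the stability, splicing and translation of their targets. In the newborn ovary the germ cells are leaving meiotic prophase and forming primordial follicles. A clone name says only how a gene was first catalogued: it may stand for a long noncoding RNA, for a member of a recently copied gene family, or for a protein-coding gene that has since received a functional name.

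Sequence could be read for few of these peaks, because only windows around annotated gene starts were at hand. Of the 1503 peaks, 11 touched a 300-base window around a RefSeq gene start (GRCm38.p6) and 4 lay wholly inside one. Those 4 windows are shown because they are the members whose full peak sequence could be read; capitals mark the bases of the peak, and each is written 5′ to 3′ on the plus strand.
B930036N10Rik peak at chr1:171503283-171503351, in the Alyref2 window chr1:171503228-171503527: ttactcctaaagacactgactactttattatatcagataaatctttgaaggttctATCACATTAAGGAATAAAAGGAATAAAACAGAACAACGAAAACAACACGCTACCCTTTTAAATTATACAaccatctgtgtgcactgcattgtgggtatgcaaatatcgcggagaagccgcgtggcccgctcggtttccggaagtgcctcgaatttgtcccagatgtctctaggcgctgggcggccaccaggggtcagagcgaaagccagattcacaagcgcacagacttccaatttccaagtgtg
E330034G19Rik peak at chr14:24293143-24293321, in its own window chr14:24293114-24293413: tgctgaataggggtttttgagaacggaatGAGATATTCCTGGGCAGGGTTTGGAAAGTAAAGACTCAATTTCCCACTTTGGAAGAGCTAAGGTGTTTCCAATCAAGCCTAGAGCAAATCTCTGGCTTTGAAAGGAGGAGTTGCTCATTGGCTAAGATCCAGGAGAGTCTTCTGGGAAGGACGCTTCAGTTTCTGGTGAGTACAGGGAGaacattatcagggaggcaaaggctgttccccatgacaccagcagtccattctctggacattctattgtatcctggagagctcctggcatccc
Gm13768 peak at chr2:90192953-90193029, in the Gm38718 window chr2:90192794-90193093: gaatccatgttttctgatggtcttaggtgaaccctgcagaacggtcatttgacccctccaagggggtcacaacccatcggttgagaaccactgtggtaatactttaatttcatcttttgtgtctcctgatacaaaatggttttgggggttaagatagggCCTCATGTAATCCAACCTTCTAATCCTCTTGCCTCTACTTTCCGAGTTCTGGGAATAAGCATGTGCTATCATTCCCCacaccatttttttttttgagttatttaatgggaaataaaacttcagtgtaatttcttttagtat
1700016H13Rik peak at chr5:103655448-103655664, in the Gm42138 window chr5:103655447-103655746: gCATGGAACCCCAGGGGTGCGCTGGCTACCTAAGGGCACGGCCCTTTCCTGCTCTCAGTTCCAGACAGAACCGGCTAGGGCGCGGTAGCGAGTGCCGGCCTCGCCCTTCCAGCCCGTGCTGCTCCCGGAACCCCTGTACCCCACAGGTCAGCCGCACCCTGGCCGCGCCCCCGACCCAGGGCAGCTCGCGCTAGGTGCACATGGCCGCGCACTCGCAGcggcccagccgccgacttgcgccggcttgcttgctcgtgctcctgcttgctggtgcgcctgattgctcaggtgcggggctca

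The B930036N10Rik peak had a pileup of 22 RIP tags against 2.34 scaled input tags, a fold enrichment of 6.90. Its gene lies on the minus strand, on which 52.2% of the peak's bases read as T (U in the RNA), against 23.0% T over all 32851 windows. The E330034G19Rik peak (12 RIP tags against 1.42 input tags, fold 5.38) held 26.3% T on its gene's strand. The Gm13768 peak (17 against 2.01, fold 5.98) held 33.8%. The 1700016H13Rik peak (16 against 2.12, fold 5.44) held 15.2% T on its gene's minus strand, so the base content of these 4 peaks spanned a wide range at similar folds. Motifs of the ELAV family were searched on both strands. The run TTTTTTT was in none of the 4 peaks and in 11.7% of all windows of 300 bases. The looser TTTNTTT, which every such run also matches, was in none of the peaks and in 31.5% of the windows. The AU-rich TATTTAT was in none of the peaks and in 5.598% of the windows. The 4 peaks, of 69, 179, 77 and 217 bases, were shorter than the windows and few, so the absence of a motif from them says little. The windows are gene starts, so they say nothing of the 3′ sequence of these transcripts.

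The name given to the group, mostly long noncoding or uncharacterised genes, was only partly borne out by the RefSeq annotation. Of the 675 genes, 219 (32.4%, interval 28.9 to 36.1) were protein-coding, 206 (30.5%, 27.1 to 34.1) long noncoding, 99 (14.7%) pseudogenes despite the rule on descriptions, 6 of another type, and 145 (21.5%) were not matched. Protein-coding genes held the most peaks, 643 (42.8%), against 467 (31.1%) for long noncoding genes and 165 (11.0%) for pseudogenes, with a peak in several genes counted for each. Gm names made up 458 genes with 892 peaks, and Rik names 217 genes with 659 peaks. The genes were short, with a median length of 13.5 kb against 48.5 kb for the other genes with peaks. A single clone-named-only peak was found in 343 genes (50.8%), while the 80 genes with 5 or more such peaks held 592 of them. Peaks that also overlapped a gene outside the rule are not in these counts.

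Peaks in clone-named genes had higher folds over fewer tags than those in other genes. Fold enrichment, as the authors' caller gave it, was the RIP pileup plus 1 over the scaled local input plus 1, and its median was 4.38 (quartiles 3.06 and 5.85) in clone-named genes and 3.19 (2.42 and 4.48) in other genes. A fold of at least 5 was reached by 582 clone-named peaks (38.7%, 36.3 to 41.2) and by 18.7% (18.1 to 19.3) of the peaks in other genes, where 20.2% of all autosomal peaks inside genes did so. A pileup of at least 20 tags was reached by 625 clone-named peaks (41.6%) and 68.1% of the others, with 66.1% over both, and the median pileup was 16 tags in clone-named and 28 in other genes. The 910 peaks that overlapped both kinds of gene had a median fold of 3.09 and a pileup of 29, close to the other genes. The −log10 q value was at least 10 for 117 clone-named peaks (7.78%, 6.48 to 9.26) and for 4.73% of the others, with 4.96% over both.

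The difference in fold went with the input. The median input level was 2.83 scaled tags in clone-named genes and 8.49 in other genes, and the input stood at the genome-wide background of 0.369 for 161 clone-named peaks (10.7%) and 4.48% of the others. In a lysate of whole ovaries, fewer cells of a type and less RNA per cell cannot be told apart. In median fold, pileup and input level the clone-named peaks lay between the peaks in other genes and those in no gene, which had a fold of 4.68, a pileup of 13 and an input level of 1.42. The share with a −log10 q of at least 10 was 7.03% in no gene, below that of the clone-named peaks. Once peaks were put into 5 equal groups by input level, the median folds were 5.85, 4.39, 3.12, 2.68 and 2.02 in clone-named genes, from the lowest input to the highest, against 5.80, 4.31, 3.22, 2.58 and 2.09 in other genes. The difference of the medians was 1.19 over all peaks and between −0.10 and 0.10 within the groups, so at a like input level the medians lay close together. The lowest input group held 40.9% of the clone-named peaks. Clone-named peaks made up 15.2% of the peaks inside genes in that group and 4.44% in the highest. Fold is computed from the input level, so they are not independent: the lowest fold of a called peak at background input was 3.65 in both kinds of gene, and the highest fold of a clone-named peak in the highest input group was 3.16.

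**Figure D1:**
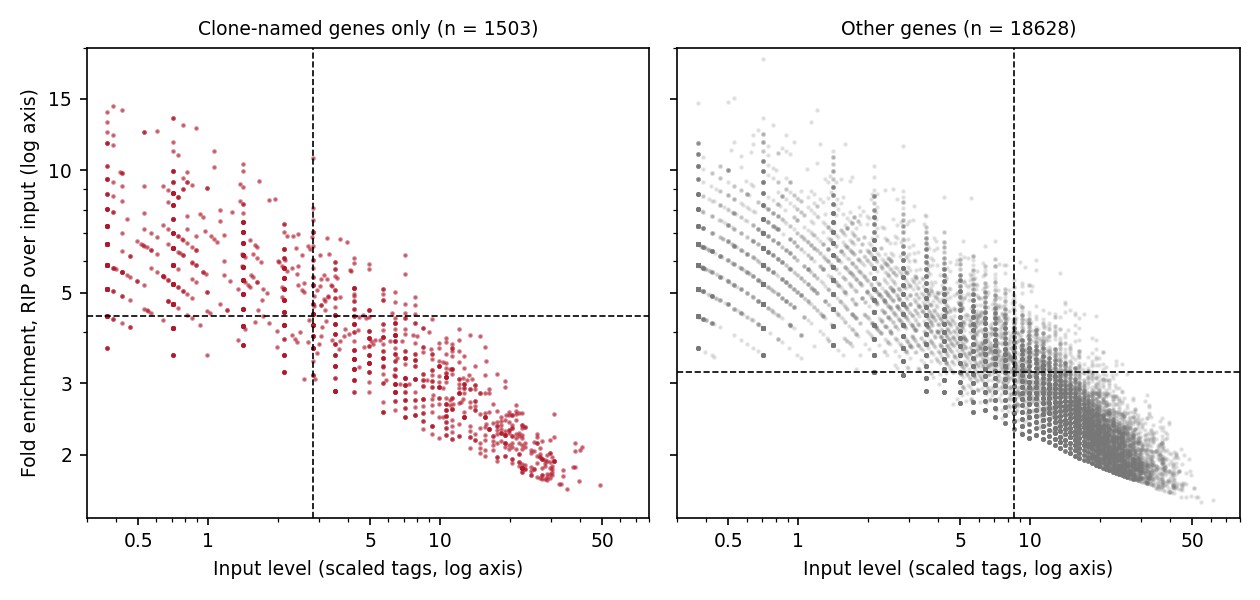
Each point is 1 autosomal peak, with its input level in scaled tags on the horizontal log axis and its fold enrichment of RIP over input on the vertical log axis, for peaks in clone-named genes only (left) and in other genes (right); dashed lines are medians. The medians lie at fold 4.38 and input 2.83 in clone-named genes and at fold 3.19 and input 8.49 in other genes, and both clouds follow the same downward course.

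The clone-named peaks differed by gene type. Among peaks that lay in exactly 1 gene, those in clone-named long noncoding genes (417 peaks) had a median fold of 5.02, a pileup of 12 and an input level of 1.42. The 77 peaks in long noncoding genes with other names had a fold of 4.68, a pileup of 14 and an input of 2.12. In protein-coding genes the clone-named peaks (584) had a median fold of 4.17, a pileup of 18 and an input of 3.54, against 3.20, 28 and 8.02 for 16612 peaks in other coding genes. Clone-named pseudogene models (155 peaks) had the lowest fold, 2.93, with a pileup of 33 and an input of 11.3, against 2.84, 38 and 11.3 for 86 peaks in other pseudogenes. Long noncoding genes thus held sparse peaks over little input, and pseudogene models dense peaks over much input, in both groups. The other pseudogenes can include clone-named models whose description calls them pseudogenes, so this is not a comparison by name alone. The difference in fold between types also went with the input. From the lowest input group to the highest, the median folds of clone-named long noncoding genes were 5.75, 4.41, 3.30, 2.64 and 2.24. Those of clone-named coding genes were 5.89, 4.19, 3.14, 2.62 and 2.12, with no steady order between the types.

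**Figure D2:**
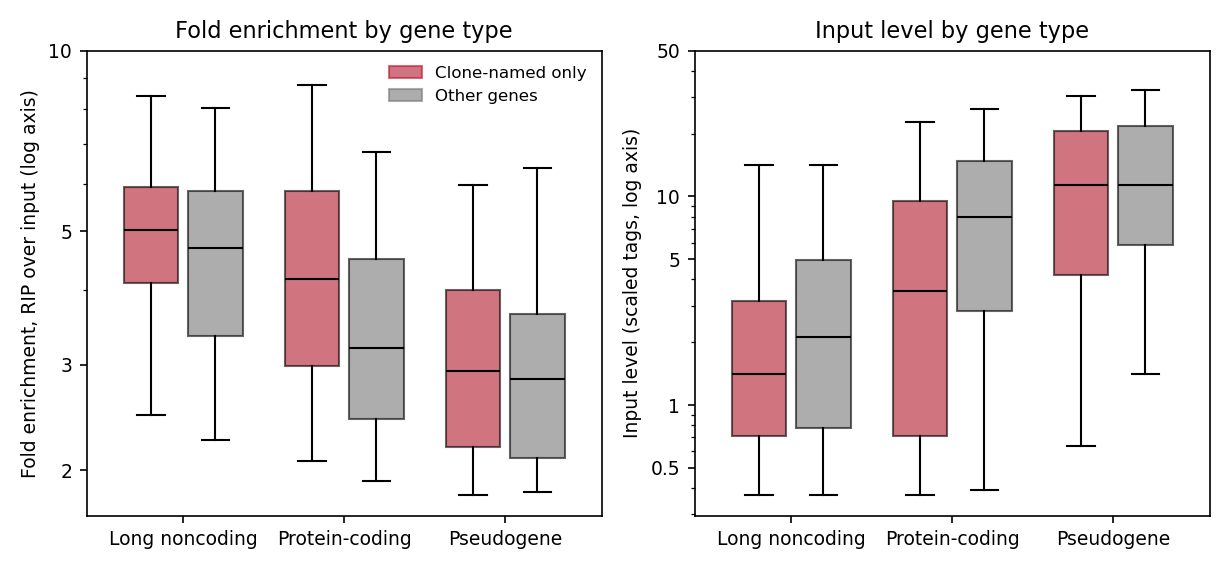
Boxes show the quartiles and median, and whiskers the 5th and 95th percentiles, of fold enrichment (left) and input level in scaled tags (right), both on log axes, for peaks in exactly 1 gene by RefSeq type, clone-named genes beside other genes. Median folds are 5.02 and 4.68 in long noncoding, 4.17 and 3.20 in protein-coding, and 2.93 and 2.84 in pseudogenes.

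Over all gene types together, a smaller share of the peaks in clone-named genes lay near the annotated 3′ end. The summit fell in the last 10% of the gene for 414 of 1410 clone-named peaks that lay in 1 gene (29.4%, 27.0 to 31.8) and for 8162 of 16923 others (48.2%, 47.5 to 49.0). By input level the share was 28.4%, 27.2%, 30.1%, 37.8% and 30.6% in clone-named genes, from the lowest input group to the highest. In other genes it was 16.9%, 38.8%, 52.4%, 62.6% and 69.1%. Over all types the clone-named share was therefore the higher one at the lowest input and the lower one in the other groups. At the lowest input this was seen in coding genes, with 33.3% in clone-named and 16.6% in other genes, while long noncoding genes had 25.4% and 26.5%. A stretch of chromosome 14 described below held 33 clone-named coding genes, with a median input level of 0.708 over its clone-named peaks. Without it the clone-named share over all input levels was 26.6%, and the share by input group was not computed without it. In long noncoding genes the clone-named share was 33.6%, 34.2%, 40% and 38.5% from the second input group to the highest. In other long noncoding genes it was 22.2%, 33.3%, 25% and 66.7%, from only 27, 9, 4 and 3 peaks. The clone-named share was thus the lower one only in the lowest and highest groups there. In a split by gene length chosen after the data were seen, the gap at high input was widest in genes over 50 kb, at 30.4% in clone-named and 67.9% in other genes for the 3 highest input groups, and was 25% and 38.3% in genes under 10 kb. At the 2 lowest input groups the share was 37.7% (32.3 to 43.3) and 32.3% (27.0 to 38.0) in genes under 10 kb. In genes of 10 to 50 kb it was 31.5% (26.2 to 37.2) and 29.9% (27.7 to 32.1). The intervals overlap in both, so no difference could be seen there. In genes over 50 kb the clone-named share was the lower one, at 15.4% (11.7 to 19.8) and 27.1% (25.9 to 28.5). By type the share was 35.6% in clone-named and 48.6% in other coding genes, and 29.5% in clone-named and 27.3% in other long noncoding genes. The interval for the 77 peaks of other long noncoding genes ran from 17.7 to 38.6, so no difference could be seen there. In pseudogenes the clone-named share was the higher one, at 21.29% (15.13 to 28.58) against 8.14% (3.34 to 16.05), with intervals that overlap slightly. In genes not matched in RefSeq it was the lower one, at 18.95% against 37.84%. Of the 16923 peaks in other genes, 16612 lay in coding genes, so the comparison over all types was mostly one with coding genes. Peaks carried no strand, so a peak can belong to an overlapping or opposite transcript, and provisional gene models may end short of the transcript; neither was tested.

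**Figure D3:**
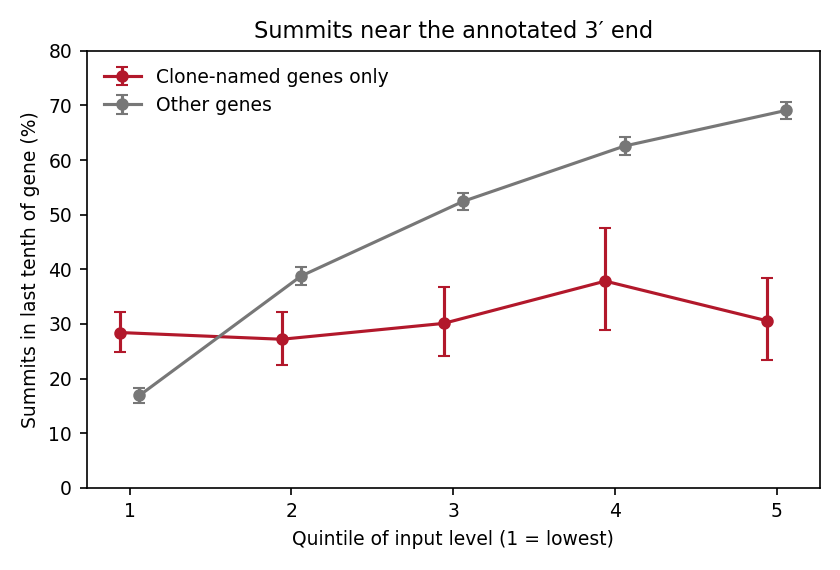
Share of peak summits in the last 10% of the annotated gene (vertical axis, percent) by quintile of input level (horizontal axis, 1 the lowest), for peaks in exactly 1 gene; bars are 95% exact binomial intervals. Clone-named genes stay between 27.2% and 37.8%, and other genes run between 16.9% and 69.1%.

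The long noncoding gene 6430573P05Rik (chr3:79287173-79289848) held the most significant clone-named peak, at chr3:79288602-79289149, with 40 RIP tags against 2.83 input tags, a fold of 10.7 and a q value of 24.9 on the −log10 scale. Its 3 other peaks had folds of 4.17, 4.79 and 5.44, and all 4 lay within a gene of 2.68 kb. Gm37296 on chromosome 15, which was not matched in RefSeq, had 6 peaks in 2.92 kb with folds between 5.15 and 11.2, the best with 22 RIP tags against 1.06 input tags. Both genes were short models with several peaks close together.

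The largest fold was 14.4, in Gm4981, a coding gene of 1.85 kb on chromosome 10, with 19 RIP tags against 0.389 input tags at chr10:58234868-58235345. A830008E24Rik on chromosome 1 had a fold of 13.9 with 18 RIP tags over an input at the genome background of 0.369. All clone-named peaks with a fold above 12 had 16 to 23 RIP tags, and their input level was at most 0.885 scaled tags (in Gm9732). The peak of 1700016H13Rik with the highest q had 49 RIP tags, the most of the 10 genes that led by q, against 7.08 input tags. Its fold was 6.19 and its −log10 q 18.7, a lower ratio over more tags.

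Several genes carried many peaks along their length. 1810013L24Rik, a coding gene on chromosome 16, had 30 peaks in 28.8 kb with folds of 1.85 to 7.02, 8 of them in the last 10% of the gene. 2700049A03Rik, also known as Talpid3 and needed for centriole function and cilia, had 18 peaks in 106 kb. Its 5 best folds were 10.2, 9.88, 9.83, 9.12 and 8.198, with 12 to 20 RIP tags each, and 1 of its 18 peaks lay in the last 10%. Cfap20dc (4930452B06Rik) had 15 peaks with a best fold of 9.24 and none in the last 10%, while Garre1 (4931406P16Rik) had 14 peaks of which 8 lay there. Gm12758, a long noncoding gene on the opposite strand, overlaps that end of Garre1 and shares 7 of these peaks. Peaks carried no strand, so those 7 cannot be assigned to 1 of the 2 genes. The share of peaks in the last 10% therefore differed between the genes with most peaks. Elapor2 (9330182L06Rik) and Gm26561 had 13 clone-named-only peaks each, with best folds of 9.37 and 9.95. Gm26561 had 24 peaks when those that also overlapped a gene outside the rule were counted, and Elapor2 still had 13. 8030462N17Rik had 14 with a best fold of 7.36.

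**Figure D4:**
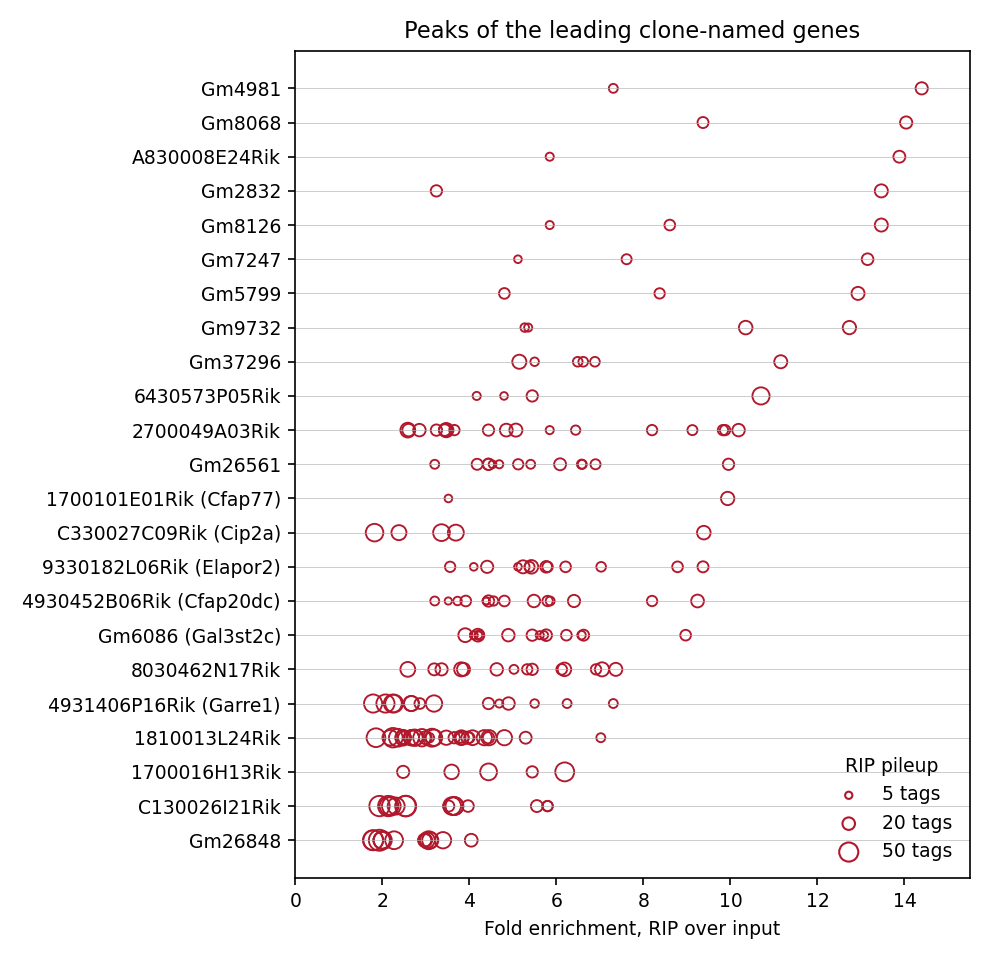
Fold enrichment of every clone-named peak (circles, area growing with the RIP pileup in tags) in the genes that lead by fold at a pileup of at least 20, by q value or by number of peaks; newer symbols stand in brackets. The folds above 12 belong to genes with 2 to 4 peaks, and 1810013L24Rik has 30 peaks between 1.85 and 7.02.

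Under clone names stood 63 protein-coding genes that RefSeq lists under another symbol, with 221 peaks, a median fold of 4.13 and best folds between 2.05 and 9.94 (median 5.63). Some clone-named genes act in meiosis. Terb2 (4933406J08Rik), which ties telomeres to the nuclear envelope in meiosis, had 8 peaks, and 6 of them lay in the last 10% of the gene with folds of 3.62 to 6.24 over 18 to 34 RIP tags. Its best fold, 9.37, came from a peak of 15 RIP tags against 0.708 input tags further upstream. 4930447C04Rik, which keeps its clone name in RefSeq and is also known as Six6os1, a central element of the synaptonemal complex, had 8 peaks with a best fold of 6.85 (25 RIP tags against 2.80 input tags). Meioc (Gm1564), which keeps germ cells in meiotic prophase, had 1 peak at 3.43. Of 5 clone-named meiosis genes listed for this work, 4930447C04Rik had peaks and the symbols of the other 4 did not occur among the gene assignments. Nor did the symbols of 14 gene models over satellite or ribosomal repeats. Only the listed symbols were searched, so a peak assigned under a newer name would have been missed.

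Oocyte genes were present as well. E330034G19Rik, whose synonym Zpac stands for a zygote-specific proteasome assembly chaperone, had 8 peaks. The first 2, at the gene start shown above, had 12 and 7 RIP tags against 1.42 and 0.389 input tags, with folds of 5.38 and 5.76. The last, at chr14:24309471-24309945, had 60 RIP tags against 15.6 input tags and a fold of 3.68. Along E330034G19Rik the pileup was therefore highest at the 3′ end and the fold highest at the start. Ccdc201 (Gm11985), typed as long noncoding in RefSeq, had 3 peaks with folds of 2.24 to 2.97 and 40 to 44 RIP tags, a low ratio over a high input.

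The remaining renamed genes covered many functions, here grouped after their values were seen. Among genes of RNA metabolism, Trmo, a tRNA methyltransferase, had 3 peaks with a best fold of 5.57 and 44 RIP tags. Ncbp3, a cap-binding protein, had 6 with a best fold of 5.38, and Virma, a subunit of the m6A writer, had 2 with a best fold of 4.54. Cip2a (C330027C09Rik), an inhibitor of protein phosphatase 2A, had 5 peaks with folds between 1.82 and 9.39. Of these, 4 lay in the last 10%, and the peak with the fold of 9.39 was not among them. Of the genes named for cilia and flagella or for the CatSper channel of sperm, Cfap77 had a best fold of 9.94, Cfap20dc 9.24, Cfap300 7.04 and Cfap299 4.10. The median fold of the 6 peaks in Cfap300 was 2.80, and Cfap299 had 1 peak. Catspere2 had 9 peaks with a best fold of 9.92 and Catspere1 had 2 with 8.198. In membrane traffic, Vps35l had 8 peaks with a best fold of 6.21 and C9orf72 had 3 with 2.22 and 50 RIP tags. Other renamed genes carry placeholder symbols, such as Ccdc192 (best fold 8.28), Fam241a (4.16) and Tmem267 (2.50), and the RefSeq symbol of 4931406G06Rik (8.198) is another clone name.

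The clone-named peaks were unevenly spread over the genome. On chromosome 14 they numbered 220 beside 828 peaks in other genes (20.99%, 18.6 to 23.6), against a share of 2.36% on chromosome 10 and 11.1% on chromosome 5, the lowest and highest of the other autosomes. A stretch between 41 and 45 Mb, singled out after its values were seen, held 137 peaks (9.12% of all clone-named peaks) in 58 genes, of which 33 were coding, 10 long noncoding, 4 pseudogenes, 1 of another type and 10 not matched. Without it the share on chromosome 14 was 9.18%. The stretch held 7 peaks in other genes and 43 in no gene.

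**Figure D5:**
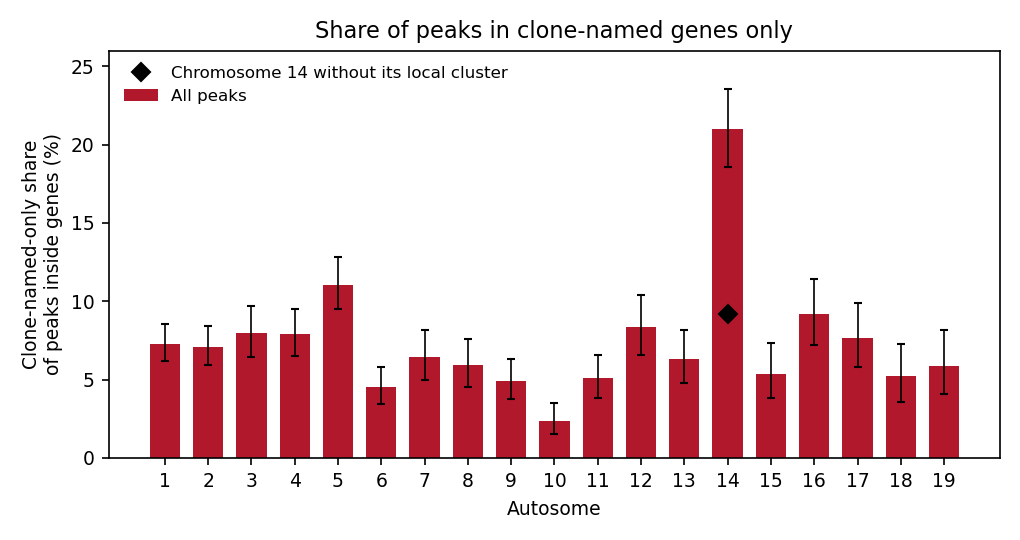
Bars give, for each autosome, the clone-named-only share of peaks inside genes (percent), with 95% exact binomial intervals; the diamond is chromosome 14 without the stretch from 41 to 45 Mb. Chromosome 14 stands at 20.99% with the stretch and 9.18% without it, and the other autosomes lie between 2.36% and 11.1%.

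Peaks in this stretch of chromosome 14 had high folds over little input. Their median fold was 6.21, against 4.16 for clone-named peaks elsewhere, and 101 of them (73.7%) reached a fold of 5 against 35.2% elsewhere. The median pileup was 12 tags and the median input level 0.708. The best peak of 15 of the 58 genes reached a fold of 10, which 10 of 617 genes elsewhere did. Other peaks of the stretch were alike: the 43 in no gene had a median fold of 5.86 and an input level of 1.42, with 69.8% at a fold of at least 5. The 7 in other genes had 5.85 and 0.885, and all 7 reached a fold of 5. Among the clone-named genes of the stretch, Gm2832 and Gm8126 had 22 RIP tags against 0.708 input tags and a fold of 13.5 each. Gm5799 had 12.9, and Gm9732, a long noncoding gene, had 12.7. Each clone-named gene of the stretch had 1 to 4 peaks over a median length of 5.47 kb.

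Some genes of the stretch were near copies of one another. Among 45 start windows of 41 of its genes, 17 of 985 pairs were at least 90% identical and 19 genes were in such a pair. Windows were compared position by position without alignment, so copies whose annotated starts are offset could be missed. The windows of Gm8068 (best fold 14.04) and Gm8005 (12.4) show how small the differences are. They matched at 296 of 300 bases, and capitals mark the 4 positions that differ. Counted from the 5′ end of the window with the Gm8068 base first, the differences are A10T, C34T, G121C and T232C. Both windows lie on the minus strand. They do not hold the best peaks, which lay in the last 10% of each gene, at chr14:41696530-41696696 in Gm8068 and chr14:42434293-42434435 in Gm8005. The sequences of those peaks were not compared.
Gm8068 window chr14:41701859-41702158: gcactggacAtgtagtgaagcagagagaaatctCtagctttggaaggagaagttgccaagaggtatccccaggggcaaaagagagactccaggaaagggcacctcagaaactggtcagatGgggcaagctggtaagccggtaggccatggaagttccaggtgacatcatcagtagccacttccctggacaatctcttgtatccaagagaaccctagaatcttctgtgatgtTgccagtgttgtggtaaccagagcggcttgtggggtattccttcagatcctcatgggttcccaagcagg
Gm8005 window chr14:42439647-42439946: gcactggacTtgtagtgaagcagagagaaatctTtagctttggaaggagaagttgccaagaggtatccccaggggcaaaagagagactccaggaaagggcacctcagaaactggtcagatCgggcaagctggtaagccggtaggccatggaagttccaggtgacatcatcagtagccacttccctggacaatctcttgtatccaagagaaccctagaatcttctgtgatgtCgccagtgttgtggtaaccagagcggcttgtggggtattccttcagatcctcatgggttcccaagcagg

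Some peaks had an exact double elsewhere, here meaning another peak with the same length, pileup, fold and distance of the summit from its start. Doubles were found for 188 clone-named peaks (12.5%, 10.9 to 14.3) and 4.80% of peaks in other genes, and in the chromosome 14 stretch for 32 (23.4%) against 11.4% of clone-named peaks elsewhere. At pileups of at least 15 the shares were 61 of 862 (7.08%) in clone-named and 248 of 14597 (1.70%) in other genes. In the stretch it was then 7 of 50 (14%, 5.82 to 26.7), against 54 of 812 (6.65%, 5.04 to 8.59) of clone-named peaks elsewhere. These 2 intervals overlap. Of the 61 clone-named peaks, 49 had their double on the same chromosome and 12 only on another sequence. Among the latter, Gm7120 had its double in Ube2j1 and D930020B18Rik in Atp11b. A double can also be a coincidence of these values, more readily at few tags, and this was not tested. 1700024B05Rik, Gm7995 and Gm10378 in the stretch shared a peak of 17 RIP tags and fold 7.45. On chromosome 5, Gm3402, Gm3409 and Gm3415 shared one of 28 RIP tags and fold 3.93. On chromosome 2, Gm4631, Gm4724, Gm14434 and Gm14308 shared one of 43 RIP tags and fold 1.86. The labels and file headers do not say how reads that align to several places were handled, and which copy the tags of such a peak came from cannot be told apart, so counts of genes with peaks in these families are uncertain.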

How the data were processed

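The authors sequenced 1 ELAVL2 RIP and 1 input library in 3 lanes each as reads of 36 bases. The tools listed in the submitters' processing notes are TopHat2 (2.0.8b), MACS2 (2.1.0.20140616), CASAVA (1.8.2) and FastQC (0.11.2), and the build is mm10. Per the file headers, tags were extended to 50 bp, 1 tag was kept per position and strand, and peaks passed a q of 0.05. The deposited pileup is a signal in tags, the deposited fold enrichment is a ratio with a pseudocount of 1, and the deposited q-value is a −log10 value. Input level was computed as (pileup + 1) / fold − 1, where 1 input tag counts 0.708.

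The gene assignments were the authors', with 85730 deposited rows and 43554 after repeats were dropped. Symbols were matched to RefSeq (GRCm38.p6) by symbol or synonym on the same chromosome with overlap: 530 of 675 genes (78.5%), 73 of them by an older name. Gene types therefore cover under 80% of the genes. Named genes were the leading 10 by fold at a pileup of at least 20, by q, by number of peaks and by fold among coding genes, the members of both lists, and genes with a descriptive name; others were chosen after their values were seen. Members and lists were chosen with earlier results of these data known. Python 3.11.15, pandas 2.3.3, numpy 2.4.6 and scipy 1.17.1 were used, and the code was tested on simulated data.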

Additional observations from a re-analysis of the deposited data

Results flagged for a closer look

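The rule leaves out the sex chromosomes, where clone-named-only peaks also occurred in numbers above the limit of 3 that a count of 0 allows. Chromosome X held 174 such peaks of 1076 inside genes, with a median fold of 3.52 and a median pileup of 29 RIP tags. Chromosome Y held 7 of 8, with a median fold of 4.55 and a median pileup of 10 tags. Both samples are labelled ovary, in which no chromosome Y is expected. Where the tags placed on chromosome Y came from was not tested, so these peaks cannot be read as RNA of its genes.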

How the results depend on the processing

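Of 48 alternative values, 20 stayed within the counting interval or 1.5 times the count, 26 moved beyond it and 2 turned sign; the cause was not tested. The number of peaks, 1503, was 625 at a pileup of at least 20, 883 for peaks paired with exactly 1 gene and 640 with the best peak of each gene. The median fold was 5.11 at a −log10 q of at least 3, 2.93 at a pileup of at least 20, 4.55 with peaks within 200 bp merged, 5.11 for the best peak of each gene and 6.12 without the pseudocount. In the same order, without the last, the input level was 2.12, 10.6, 2.12 and 1.57. The share with a fold of at least 5 was 52.2%, 11.4%, 43.9% and 51.4%, and 57.0% without the pseudocount. The share in the last 10% of the gene was 32.0% at a pileup of at least 20. Without chromosome 14 from 41 to 45 Mb, an alternative chosen after seeing the data, the fold was 4.16, the input level 3.08, the share at fold 5 35.2% and the share in the last 10% 26.6%. The difference of median folds, 1.19, was 0.049, 0.075, −0.098, 0.10 and −0.071 within the input groups, lowest to highest. The coding share of genes, 32.4%, was 23.1% with current symbols alone.

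No paired analysis was possible because each arm was 1 sample. The median pileup of 16 tags limits the precision of each fold.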

Other observations

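A small share of clone-named peaks also lay in a named coding gene of the newer RefSeq annotation. That held for 275 of 1503 peaks (18.3%), in 205 of which the named gene was the clone-named gene under its newer symbol. The other 70 (4.66%) lay in 32 different named coding genes and had a median fold of 3.30. For 21 of these peaks the named gene was on the same strand as the clone-named one. Gm12899, typed as a pseudogene in RefSeq and on the strand opposite to the germ cell gene Dmrtb1, had 2 peaks with a best fold of 11.5. The summit of that best peak, at chr4:107687999, lay outside Gm12899 (chr4:107688128-107688678), which the peak overlapped only at its edge. Gm20667, opposite to Cdca2, a cell division gene, had 6 with a best fold of 6.97, and C330011M18Rik, opposite to the transcription factor gene Rfx1, had 3 with 8.48. The peaks carry no strand, so the RNAs of 2 opposite genes cannot be told apart.

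Past the 3′ end of a named coding gene, within 5 kb and on the same strand, lay 24 of the 1228 clone-named peaks outside named coding bodies (1.95%, 1.26 to 2.89). Of these, 10 lay past the RefSeq end of their own gene under its newer symbol, 9 of them in Gm6086 at 614 to 3427 bp past Gal3st2c and 1 in 5730508B09Rik past Fam241a. The 14 past a different named gene had a median fold of 4.43, against 4.44 for the 1204 peaks with no such gene within 5 kb. Gm20509 had 3 of these, 166 to 3234 bp past Khdc3, a gene of the oocyte's subcortical maternal complex, with a best fold of 5.76. Gm43279 had 1, 4099 bp past Uchl1, with a fold of 7.04.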
